A study of Danio rerio with 6 samples.

Results

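The Notch pathway genes described here are the genes of the deposited table whose symbol follows the naming of Notch receptors, their Delta and Jagged ligands, the proteins that activate, cut, glycosylate or inhibit them, and the Her, Hes and Hey transcription factors. Of 19722 listed genes, 37 matched. These symbols belong to 34 genes named for the pathway and to 3 that share only the spelling, namely jagn1a and jagn1b (Jagunal homologues, membrane proteins of the endoplasmic reticulum) and mibp (a muscle integrin-binding protein). All 37 symbols were listed under a single identifier each.

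GFP-positive cells were sorted at the 15 somite stage from wild-type zebrafish embryos of 2 transgenic lines, with 3 libraries per line. Gt(SAGFF27C); Tg(4xUAS:egfp), here Gt(endocard:egfp), is a gene-trap line whose GFP is enriched in endocardial progenitors. At stages later than the sort, the paper reports weak GFP in heart muscle and likely GFP in a few myeloid cells. Only strongly fluorescent cells were used, to limit heart muscle cells with weak GFP. Tg(fli1a:egfp) marks endothelium, the endocardium included, and also blood cells. Each line was outcrossed to wild-type fish, the first from homozygous and the second from heterozygous carriers. The measurement used is the authors' mean of each gene, whose label names neither libraries nor unit. It was read as the mean over all 6 libraries of both lines in log2 CPM (read counts scaled to the size of each library). CPM below is that mean put back on the linear scale. It has no error or n of its own, the depth of the libraries is unknown, and the lines were not compared, because the other measurements of the table are the result of the authors' own comparison.

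Notch receptors are single-pass membrane proteins that bind Delta or Jagged ligands on a neighbouring cell. Ligand binding exposes the receptor to cleavage by Adam10 and then by gamma-secretase. The released intracellular domain joins Rbpj and Mastermind proteins to activate genes such as many, but not all, of those of the Her, Hes and Hey repressors. In the embryo the pathway is known for its part in arterial identity, in the endocardium, in the segmentation clock of the presomitic mesoderm and in neurogenesis.

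Most of the Notch genes were listed above a floor of 1 CPM, led by lfng and hey2 among those of the pathway. At or above 1 CPM were 33 of the 37 genes (89.2%), against 73.9% of all listed genes. Without the 3 spelling matches, 30 of 34 were (88.2%). The median of the 37 was 16.8 CPM and that of all listed genes 5.98 CPM. All 37 carry a symbol, whereas 5630 of the listed identifiers do not. The median position of the 37 was above 65.6% of all listed genes, but above 57.9% of the genes with a symbol. In the order of reads, 14 of the 37 were above at least 75% of all listed genes, with mibp and jagn1b among the 14. Another 3 were above fewer than 25% of all listed genes. The 3 spelling matches had 173 CPM (mibp), 65.3 CPM (jagn1b) and 1.98 CPM (jagn1a), and without them the median was 14.0 CPM. CPM are shares of reads and are not divided by transcript length, so longer transcripts take more reads per molecule and an order of genes by CPM is an order of reads.

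**Figure D1:**
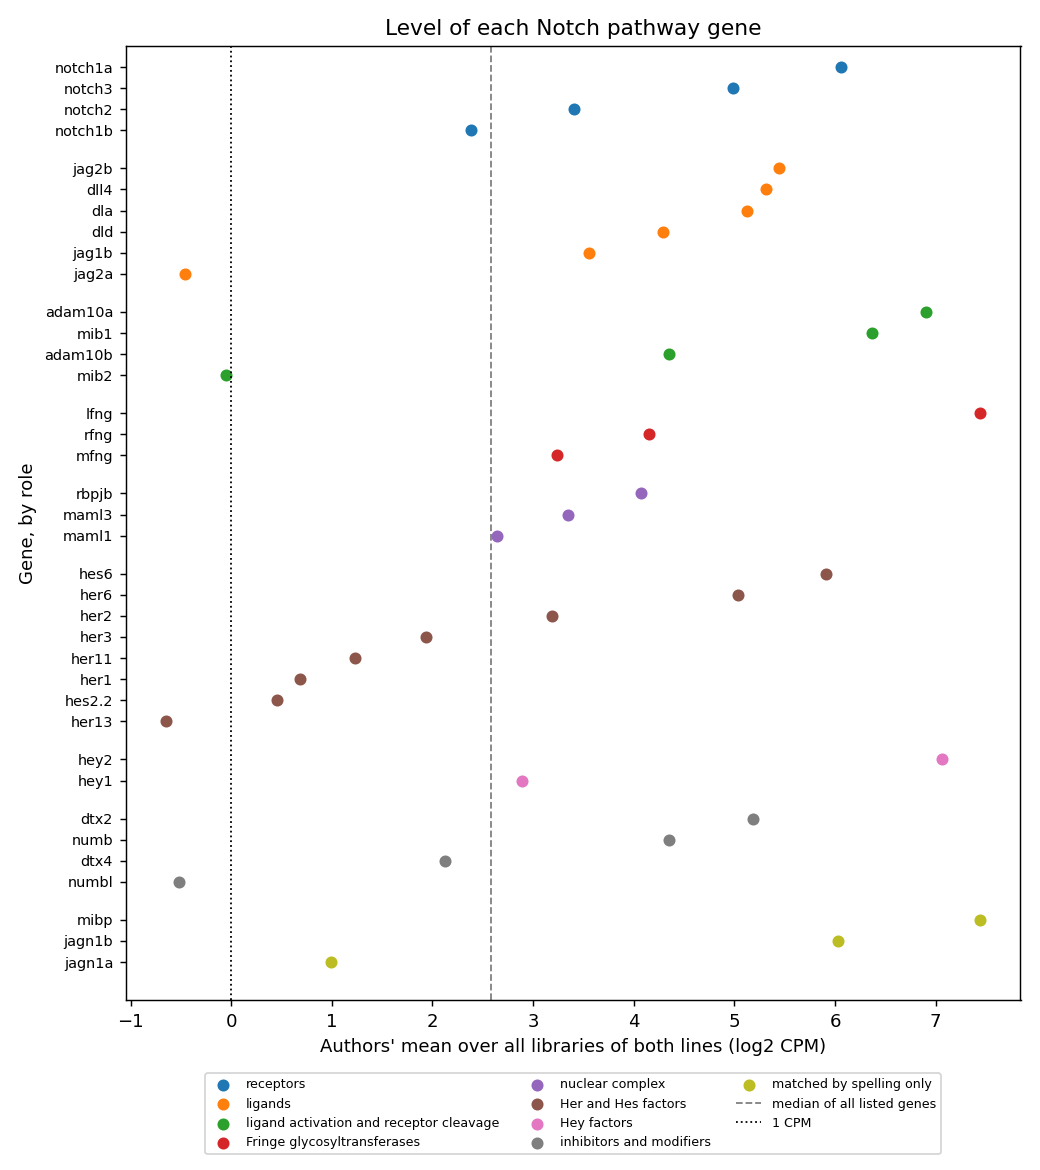
Each point is 1 gene, placed by the authors' mean, read as the mean log2 CPM over the 6 libraries (x axis). Genes are grouped by role (y axis, colours). A dashed line marks the median of all listed genes and a dotted line 1 CPM. The genes run from 0.640 CPM for her13 to 173 CPM for lfng and mibp, and 4 genes lie under 1 CPM.

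All 4 receptors were above 1 CPM. notch1a (ENSDARG00000103554) had a mean of 66.7 CPM, which placed it above 86.5% of listed genes in reads. notch3 (ENSDARG00000052139) had 31.8 CPM and notch2 (ENSDARG00000043130) had 10.6 CPM. notch1b (ENSDARG00000052094), the second zebrafish copy of Notch1 and one known from endothelium, had 5.20 CPM, under the median of all listed genes. The receptors therefore spanned both sides of that median, with notch1a and notch1b at opposite ends.

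Among the 6 ligands, 5 were above 1 CPM. The Jagged ligand jag2b (ENSDARG00000021389) had a mean of 43.4 CPM, and dll4 (ENSDARG00000070425), the Delta ligand known from arterial endothelium, one of 39.8 CPM. The Delta genes dla (ENSDARG00000010791) and dld (ENSDARG00000020219), known from neural tissue and, for dld, also from the presomitic mesoderm, had 34.8 and 19.6 CPM. jag1b (ENSDARG00000013168) had 11.7 CPM. The exception was jag2a (ENSDARG00000014246), whose mean of 0.726 CPM was higher than that of 22.1% of listed genes. The ligand known from arteries and those known from neural and somitic tissue thus all had more reads than the median listed gene.

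The enzymes that act on ligand and receptor included some of the members with most reads. adam10a, a protease that cuts the bound receptor, had 120 CPM and its paralogue adam10b 20.4 CPM. mib1, the ubiquitin ligase through which ligands are taken up by the sending cell, had 82.7 CPM, whereas mib2 had 0.966 CPM. All 3 Fringe glycosyltransferases, which modify the receptor and alter its response to Delta and Jagged, were listed. The mean of lfng (ENSDARG00000037879) was 173 CPM, higher than in 95.0% of listed genes, and those of rfng and mfng were 17.8 and 9.43 CPM.

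The 3 members that partner the cleaved receptor in the nucleus were all above the median of listed genes. rbpjb, a DNA-binding partner, had 16.8 CPM, above 65.6% of listed genes, and the Mastermind co-activators maml3 and maml1 had 10.1 and 6.22 CPM. Of the genes that restrain or modify the pathway, dtx2, a Deltex ubiquitin ligase, had 36.3 CPM and numb, an endocytic adaptor that antagonises Notch, had 20.4 CPM. dtx4 had 4.35 CPM and numbl, the paralogue of numb, 0.696 CPM.

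The Her, Hes and Hey repressors lay on both sides of the median of all listed genes. hey2 (ENSDARG00000013441), known as gridlock and needed to assemble the aorta, had 134 CPM, above 93.2% of listed genes, and hey1 had 7.42 CPM. The 8 Her and Hes genes had a median of 2.99 CPM, under that of all listed genes. hes6 (60.1 CPM) and her6 (32.7 CPM), a Hes1-type repressor, were the 2 of them with more reads than 75% of listed genes. her2 had 9.10 CPM and her3 3.83 CPM. her11, her1 and hes2.2 had 2.34, 1.60 and 1.37 CPM, and her13 had 0.640 CPM, the lowest mean of all 37 members. her1 is a core gene of the segmentation clock, so its reads are listed beside those of 8 presomitic and somitic markers. These ran from 0.188 CPM for mespaa to 21.7 CPM for tbxta, with 6 of the 8 at or above 1 CPM.

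The symbol column leaves 5630 identifiers blank, and the same name patterns applied to a separate gene name list found 18 more Notch names among them. Their median was 6.66 CPM, and 16 of the 18 were at or above 1 CPM. The ligands dlc, dlb and jag1a had means of 43.9, 11.6 and 5.86 CPM. A second Rbpj identifier, given as RBPJ by the list, had 49.1 CPM, above 82.4% of listed genes, beside the 16.8 CPM of rbpjb. The highest of the 18 was an identifier given as HES4, with 77.5 CPM, and the lowest were notchl with 0.555 CPM and her8.2 with 0.168 CPM. With these 18 added to the 37 members, the median was 10.6 CPM over 55 genes.

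**Figure D2:**
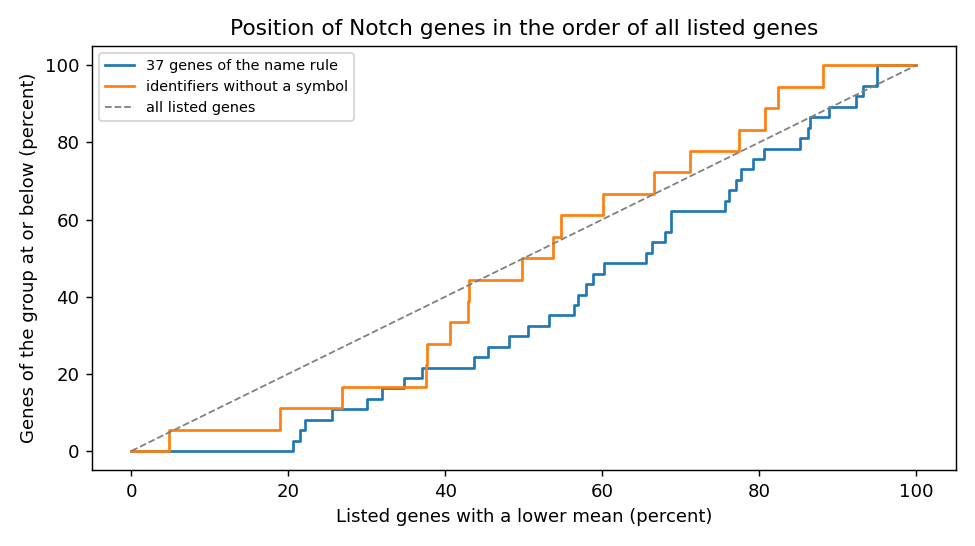
The x axis gives the percent of all listed genes with a lower mean and the y axis the percent of each gene group at or below that position, as steps for the 37 members and the 18 identifiers without a symbol, and as a dashed diagonal for all listed genes. The step line of the members lies mostly under the diagonal, with a median position of 65.6%, and that of the 18 identifiers has a median position of 51.7%.

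Several Her genes lie side by side in the genome, by the order of protein-coding genes in the RefSeq assembly GRCz12tu, which was used for order only. her1 is next to her7, the other gene of the clock pair, and their means were 1.60 and 3.66 CPM. her11 is next to her5 (2.34 and 1.07 CPM), and her13 next to her8.2 (0.640 and 0.168 CPM). her2 is followed by the copies her15.1 and her15.2, with 23.7 and 18.1 CPM against 9.10 CPM for her2. The 5 her4 copies form another row, beside her12, and their means ran from 2.44 to 8.16 CPM with a sum of 23.7 CPM. The copies within the her4 and her15 groups were taken as near-identical, but their identity was not measured here. The counting may have split or lost reads among them, and their single values are uncertain.

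Components of the pathway that the name rule does not cover were read from a separate list of 36 genes, of which 32 were matched and 30 were at or above 1 CPM. Their median was 30.8 CPM. Of the gamma-secretase subunits, aph1b had a mean of 76.4 CPM and psenen one of 42.1 CPM. The targets and feedback genes nrarpa and nrarpb had 18.04 and 8.85 CPM, and efnb2a, an arterial ephrin ligand, 60.7 CPM. Of the general co-repressors, hdac1 had 1235 CPM and ctbp1 413 CPM. kat2b, a histone acetyltransferase, had the lowest mean of the list, 0.224 CPM.

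Markers of cell types were examined on the same scale to place these levels. All 9 endothelial markers were above 1 CPM, with a median of 233 CPM and a range from 3.13 CPM for pecam1 to 1194 CPM for fli1a, the gene of the Tg(fli1a:egfp) reporter. Genes of red blood cells had a median of 23.3 CPM (6 genes) and ran from 2.59 CPM for hbae5 to 140.3 CPM for alas2. That median fell in a gap between slc4a1a (8.15 CPM) and hbbe3 (66.8 CPM). The 8 neural markers had a median of 5.32 CPM and ran from 2.87 CPM for neurog1 to 89.2 CPM for sox3. Second among them was elavl3, a gene of young neurons, with 18.3 CPM. The 8 presomitic and somitic markers had a median of 4.63 CPM, and the 6 myocardial markers one of 2.83 CPM. The 4 epidermal markers had a median of 130.5 CPM, from 44.8 CPM for tp63 to 1633 CPM for krt4. Of the 4 myeloid markers 3 were matched, spi1b with 935 CPM, lcp1 with 58.3 CPM and mpx with 2.52 CPM. The part of other cell types in the levels of dla, dld, her1 and the other Notch genes was not tested. In such bulk samples, fewer cells of a type and less RNA per cell cannot be told apart, and a mean of log values over both lines does not show whether a gene was listed at like levels in both.

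**Figure D3:**
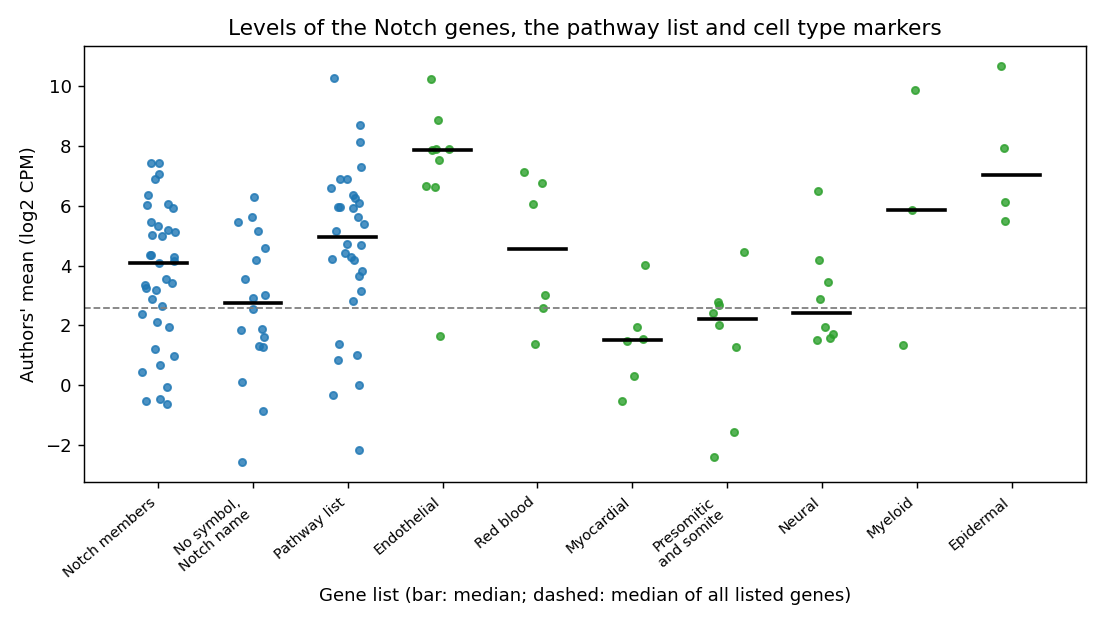
Each point is 1 gene by the authors' mean in log2 CPM (y axis) in its gene list (x axis), with a bar at the median of each list and a dashed line at the median of all listed genes. The median of the Notch members (16.8 CPM) was above the medians of the presomitic, neural and myocardial markers. It was under those of the red blood (23.3 CPM), myeloid (58.3 CPM), endothelial (233 CPM) and epidermal (130.5 CPM) markers. The members ran from 0.640 to 173 CPM and overlapped the genes of each marker list.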

How the data were processed

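Messenger RNA was sequenced from sorted GFP-positive cells, amplified from low input with the Smart-seq2 protocol, which keeps neither the strand nor a tag of single molecules. Mapping to GRCz11 and counting per gene were both done by the authors in Rsubread. Tool versions, the filter on low counts and the normalisation are not given in the sources used here. The one deposited table, a limma result, holds a mean expression per gene, read here as the mean over all libraries in log2 CPM. Its label names neither the libraries nor the unit. The 7 columns of the authors' comparison of the lines (a fold change, its limits, test statistics and p-values) were not used. The table holds no values per library, so no test, error, replicate check or count model could be made here.

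Put back on the linear scale, the means summed to 956297 CPM, and medians were taken on the log2 scale. Percentiles are the percent of listed genes with a lower mean, and their calculation was tested on simulated data. Genes were counted at a mean of at least 1 CPM. The gene name list matched 18622 identifiers, and list genes were looked up by symbol and then by that list. The members and lists were chosen with earlier results of these data known, and the use of the name list, the left-out spelling matches and the neighbouring genes were chosen after the data were seen. All receptors and ligands are named, in other roles the 4 members of highest mean and the lowest, and members of copy groups. The remaining members were chosen for naming after their values were seen. In the other lists the named genes were not always those of highest mean, and that choice was also made after values were seen. The value of 1 gene of the pathway list is not reported here. Python 3.11.15, numpy 2.4.6, pandas 2.3.3 and matplotlib 3.10.9 were used.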

Additional observations from a re-analysis of the deposited data

How the results depend on the processing

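With genes under 1 CPM left out, the median level of the Notch pathway genes was 19.6 CPM in place of 16.8 CPM, and their median position 56.8% of the remaining genes in place of 65.6%. Against genes with a symbol only, the position was 57.9%. Settings chosen after the data were seen gave 14.0 CPM and 62.9% without jagn1a, jagn1b and mibp, and 10.6 CPM and 58.8% with the 18 identifiers without a symbol added. The number of members at or above the floor was 37 at 0.5 CPM and 27 at 5 CPM, against 33 at 1 CPM, while the share of all listed genes was 82.4% and 52.5%. Leaving out the her4 and her15 copies and taking 1 row per symbol could change no value. No member symbol is in those groups or listed more than once. Paralogue pairs such as notch1a and notch1b were kept in. The steps per coding length, the Rbpj motif in promoters and the identity of proteins were not run, since no sequences were used here. No paired analysis was possible because the deposited table holds no values per library, and for the same reason no replicate was left out. The depth of the libraries is unknown, so the precision of low means such as those of her13, jag2a, numbl and mib2 cannot be given.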
